A study of Mus musculus with 2 samples.

Results

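The genes described here are 6 matrix metalloproteinases (Mmp8, Mmp9, Mmp12, Mmp13, Mmp14 and Mmp19), the membrane-bound sheddase Adam8, and the tissue inhibitors of metalloproteinases Timp1 and Timp2. They were taken by symbol from the feature table, and all 9 were found among the 32285 genes measured. The cells were CD45+ leukocytes sorted from full-thickness mouse skin, after a Liberase TM digest, from control skin at day 0 and from skin 2 days after challenge with DPCP (diphenylcyclopropenone), a contact sensitiser. Both sets of cells carried CellPlex sample tags and were pooled into 1 droplet library of 3' ends, so each condition is 1 tagged sample. Strain, age, number of mice per tag and sensitisation schedule are not given in the sources used here. No p-value between conditions could be had, and every interval below is a 95% interval that covers counting error of unique molecular identifiers (UMIs) only. A level is a gene's summed UMIs scaled to the total UMIs of the same cells (CPM). Because only 3' ends were counted, levels were not scaled by gene length.

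Matrix metalloproteinases are zinc proteases that are made as inactive precursors and that cut collagens, elastin, other matrix proteins, cytokines and chemokines once the propeptide is removed. TIMPs bind the active site of these enzymes, and TIMP2 together with membrane-bound MMP14 also takes part in the activation of pro-MMP2. In inflamed skin, neutrophils bring MMP8 and MMP9 preformed in granules, and macrophages are a known source of MMP12. Langerhans cells are known to use MMP9 when they leave the epidermis.

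Of 14146 barcodes, filtering left 4967 from control skin and 7588 from DPCP skin, with medians of 8797 and 4728.5 UMIs per cell. The conditions shared 0 barcode sequences. The tag of a cell's own condition was the highest in 100% of control and 99.92% of DPCP barcodes, while the other tag made up 2.18% and 13.89% of the UMIs of both tags. Cells were clustered without the genes listed here, and a cluster got a class name only from at least 3 of that class's markers. Neutrophil-like cells made up 2.13% of control and 63.5% of DPCP cells, and their calprotectin transcripts S100a8 and S100a9 were found in cells of every class: 571 DPCP cells outside the neutrophil-like class, and 45 control cells, were rich in them (over 20 UMIs). Among all kept cells the summed marker level was 8.13 and 1.45 CPM for fibroblasts, 8.79 and 6.76 CPM for keratinocytes, and 17.7 and 35.7 CPM for endothelial cells, in control and DPCP.

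Over all kept cells, every protease of the set stood higher after DPCP, and the inhibitor Timp2 did not. Mmp8, the neutrophil collagenase, went from 6.78 to 191 CPM, 28.2-fold higher (25.3 to 31.4). Mmp9, gelatinase B, went from 29.8 to 382 CPM, 12.8-fold higher (12.2 to 13.5). Mmp14, the membrane-anchored collagenase that also activates other metalloproteinases, went from 6.89 to 72.3 CPM, 10.5-fold higher (9.41 to 11.7). Mmp13, an interstitial collagenase, went from 1.43 to 11.1 CPM, and Mmp12, macrophage metalloelastase, from 11.4 to 52.0 CPM. They were 7.75-fold (6.07 to 10.0) and 4.57-fold (4.18 to 5.0) higher. Mmp19, which cuts basement membrane proteins, went from 22.7 to 53.7 CPM, 2.37-fold higher. Adam8, a sheddase of leukocytes, went from 115 to 215 CPM, 1.86-fold (1.80 to 1.92). Timp1, the inducible member of the inhibitor family, went from 0.425 to 5.08 CPM, which is 22 and 270 UMIs, or 12.0-fold (7.74 to 19.4). Timp2 went the other way, from 159 to 108 CPM, at a ratio of 0.681 (0.658 to 0.704).

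A gene was called where it had at least 50 UMIs, differed at least 2-fold and had an interval that did not hold 1. By this rule 7 of the 9 genes were higher and 0 were lower in all kept cells. Of all 14376 genes tested, 14.3% were called higher and 10% lower. The median log2 ratio was 2.95 over the 9 genes and -0.17 over all genes tested. The 9 genes were chosen with earlier results of these data known. Such contrasts, here and within classes below, are therefore descriptions and not independent of the data. In a pool of cells, more cells of a type and more RNA per cell cannot be told apart, so the values within cell classes follow. The 2 inhibitors together held 45.0% of the 18305 UMIs of the set in control skin, nearly all of it Timp2, and 10.4% of 57885 UMIs after DPCP. The plot of levels over all kept cells shows the upward step of the 7 proteases and Timp1 beside the downward one of Timp2.

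**Figure D1:**
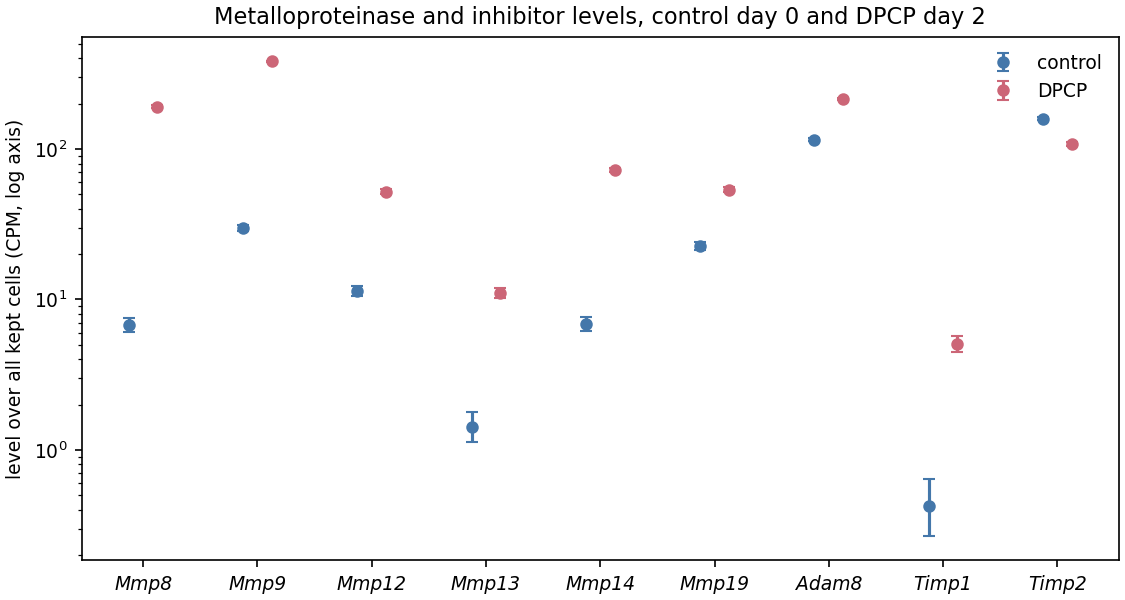
Level of each gene (CPM, log axis) over all kept cells in control (blue) and DPCP (red) skin; bars are 95% counting intervals, with 1 tagged sample per condition. Timp2 is the only gene whose DPCP point lies below its control point (108 against 159 CPM).

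The cells that held these transcripts differed from gene to gene. In control skin, Adam8, Timp2 and Mmp19 UMIs lay mostly in clusters 1 and 3, 2 large unnamed myeloid clusters led by Lyz1, Retnla and Lpl and by Sntg1 and Thsd4. These clusters held 32.5% and 33.1% of control Adam8, 39.6% and 25.1% of Timp2, and 51.6% and 27.0% of Mmp19, beside 27.8% and 25.1% of all control UMIs. After DPCP, neutrophil-like cells held 87.9% of Mmp9, 69.9% of Mmp8, 68.1% of Adam8 and 51.2% of Timp2. Those cells held 40.5% of all DPCP UMIs, which is the share to read these values against. Mmp12 and Mmp13 lay elsewhere: 81.2% and 65.1% of their DPCP UMIs were in cluster 19, a cluster of 120 DPCP cells. Mmp14 was spread over Langerhans cell-like cells (38.1%), cluster 19 (27.3%), neutrophil-like cells (13.7%) and mature dendritic cell-like cells (12.8%).

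**Figure D2:**
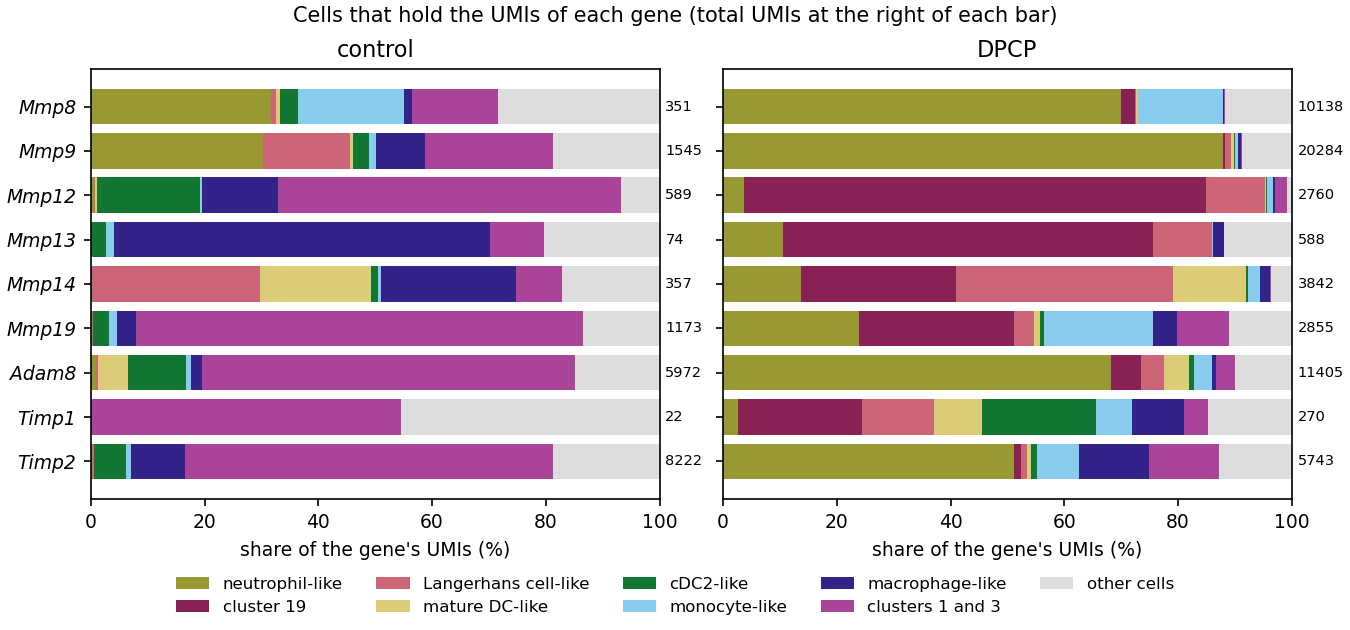
Share of each gene's UMIs (%, x axis) held by cell classes and clusters in control and DPCP skin, with the gene's total UMIs at the right of its bar. Mmp9 and Mmp8 are mostly in neutrophil-like cells after DPCP (87.9% and 69.9%), Mmp12 and Mmp13 mostly in cluster 19 (81.2% and 65.1%).

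**Figure D3:**
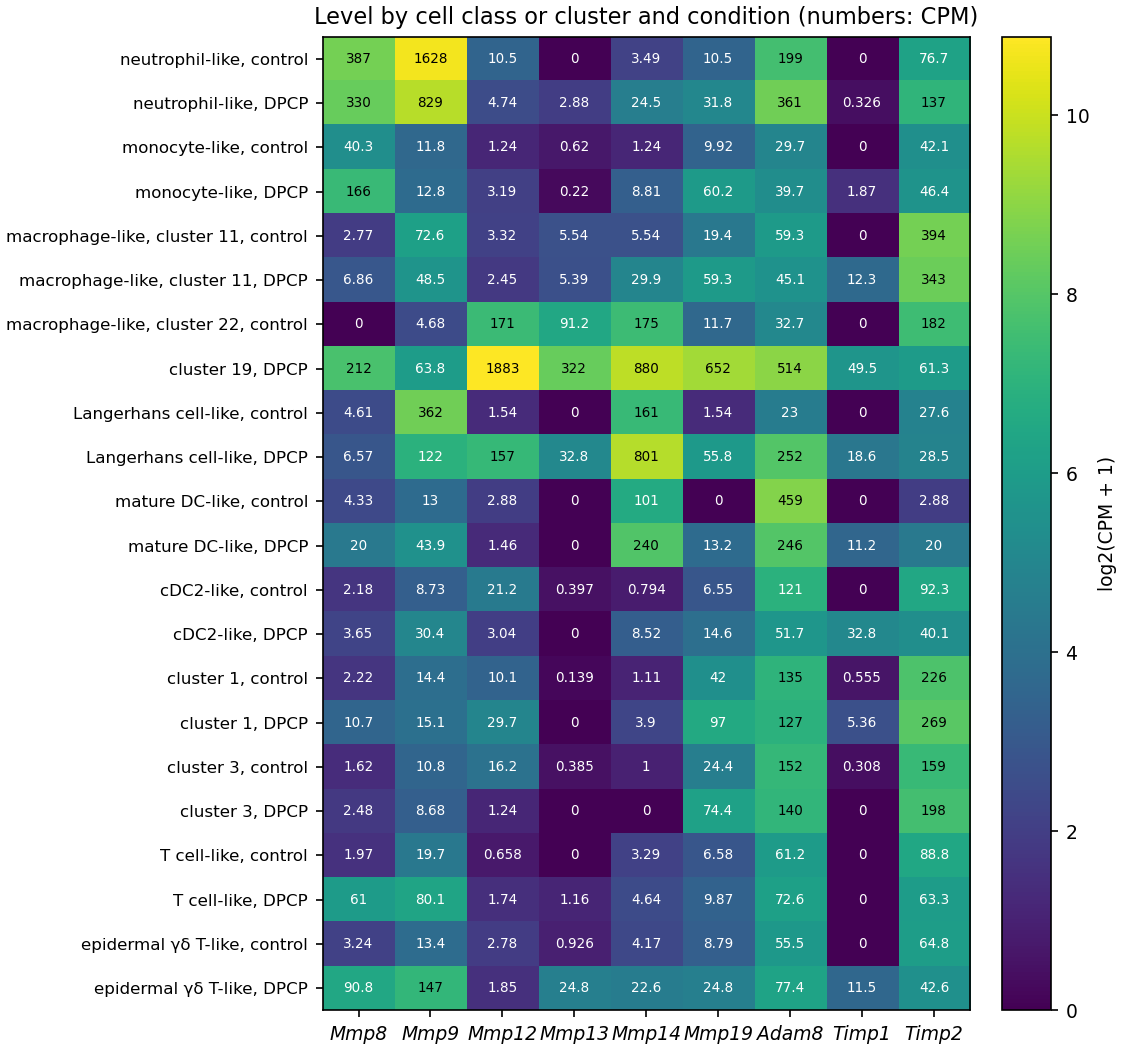
Level of each gene in cell classes and clusters, by condition, with CPM printed in each field and log2(CPM + 1) as colour; fields rest on at least 20 cells. The highest Mmp12, Mmp13, Mmp14 and Mmp19 values are in cluster 19 (1883, 322, 880 and 652 CPM).

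Within the clusters named neutrophil-like, neither granule protease was called higher, but this depended on how neutrophils were picked. Mmp8 stood at 387 CPM in the 106 control cells and 330 CPM in the 4816 DPCP cells, a ratio of 0.852 (0.706 to 1.04). Mmp9 stood at 1628 and 829 CPM, a ratio of 0.509 (0.464 to 0.559), just short of the 2-fold rule. With cells gated on their own markers instead of by cluster, both were called higher, with log2 ratios of 2.37 (2.14 to 2.60) for Mmp8 and 1.79 (1.67 to 1.91) for Mmp9. Of the 390 control cells gated as neutrophils, 290 lay outside the neutrophil-like clusters and had Mmp8 at 21.0 and Mmp9 at 61.7 CPM. Of the 4800 gated DPCP cells, 355 lay outside. The neutrophil transcripts S100a8 and S100a9 together stood at 3966 CPM in these 290 control cells and 31530 CPM in these 355 DPCP cells. In the gated cells inside the clusters they stood at 69542 and 88780 CPM, so most gated control cells were low in neutrophil RNA. The gated cells inside those clusters (100 control, 4445 DPCP) had Mmp8 at 417 and 341 CPM and Mmp9 at 1670 and 853 CPM. Adam8 went from 199 to 361 CPM (1.82-fold, 1.40 to 2.40) and Timp2 from 76.7 to 137 CPM (1.78-fold, 1.18 to 2.85), both under the rule. Mmp14 and Mmp19 were called higher, from 1 UMI to 527 UMIs (3.49 to 24.5 CPM) and from 3 UMIs to 684 UMIs (10.5 to 31.8 CPM). The ratios rest on so few control UMIs that their intervals ran from 1.26 to 278.2 and from 1.04 to 14.8. Mmp13 was at 0 in control cells, which allows up to 10.5 CPM, so its 2.88 CPM after DPCP lay below what could be compared. Thus 2 of the 8 genes tested were called higher and 0 lower, where 5.94% and 7.76% of all genes were called. The median log2 ratio was 0.30 over those 8 genes, with Mmp13 at its bound, and -0.29 over all genes tested. Scaling by trimmed mean of M-values (TMM) moved the median of all genes by 0.34 (log2) in these cells: Adam8 and Timp2 then passed the rule (2.30-fold and 2.26-fold), Mmp8 turned to 1.08-fold, Mmp9 stayed lower at 0.645, and 9.48% of all genes were called higher and 3.36% lower.

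The control and DPCP cells of this class did not fill the same clusters: 105 of the 106 control cells were in cluster 2, while DPCP cells also filled clusters 0, 5, 8 and 10. In cluster 2 alone, Mmp8 went from 385 to 222 CPM and Mmp9 from 1644 to 1189 CPM. Mmp14 and Mmp19 had too few UMIs there to be tested (1 and 9, and 3 and 34), with ratios of 0.667 (0.0924 to 29.2) and 0.840 (0.264 to 4.27), and 0 of the genes was called. Among DPCP clusters, cluster 8, marked by Retnlg, Ly6g and Ngp, held the highest Mmp8 (918 CPM) and Mmp9 (1622 CPM). Clusters 0 and 5 had the lowest Mmp9, 391 and 395 CPM, with intervals that overlapped. Their Mmp8 was 189 and 103 CPM. Adam8 ran differently, from 238 CPM in cluster 2 and 293 CPM in cluster 0 to 515 CPM in cluster 5. Mmp14 was at 2.36 CPM in cluster 2 and 2.21 CPM in cluster 8, but at 53.0 CPM in cluster 0, 23.1 CPM in cluster 5 and 20.1 CPM in cluster 10. Mmp19 followed the same division, 8.91 and 2.53 CPM in clusters 2 and 8 against 50, 50.4 and 29.9 CPM in clusters 0, 5 and 10. The plot of neutrophil-like clusters shows that clusters high in Mmp9 were low in Mmp14, apart from cluster 10, which carried both.

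**Figure D4:**
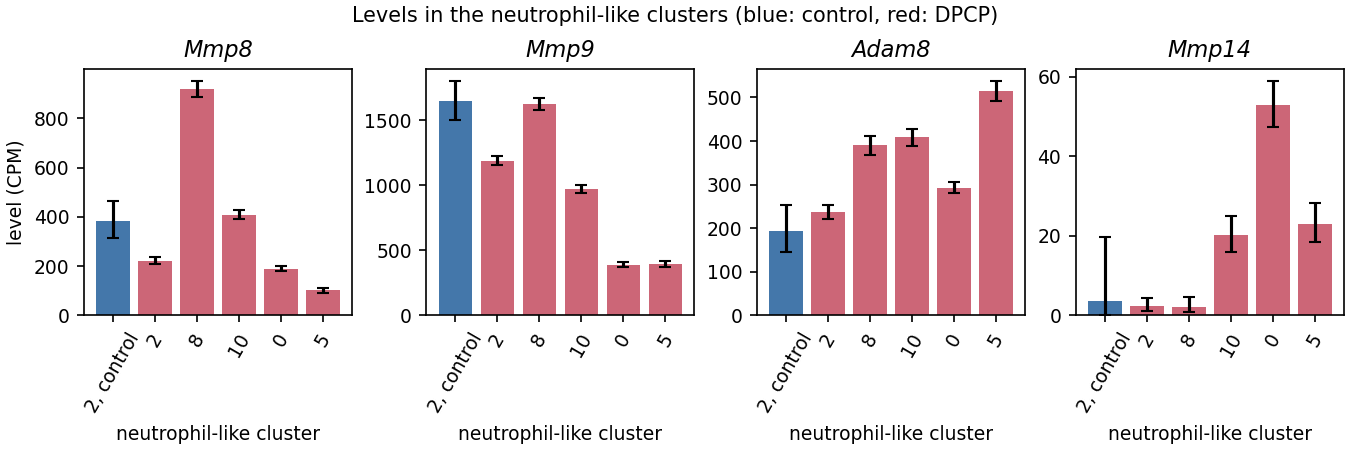
Level (CPM, y axis from 0) of Mmp8, Mmp9, Adam8 and Mmp14 in each neutrophil-like cluster; blue is control, red is DPCP, bars are 95% counting intervals. Cluster 8 has the most Mmp8 and Mmp9 (918 and 1622 CPM), cluster 5 the most Adam8 (515 CPM) and cluster 0 the most Mmp14 (53.0 CPM).

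Mmp8 and Mmp9 were also carried by other classes, and the proportion between them differed. In monocyte-like cells (186 control, 761 DPCP), marked by Vcan, Plac8, Chil3 and Hp, Mmp8 rose from 40.3 to 166 CPM, 4.12-fold (3.21 to 5.37), while Mmp9 stood at 11.8 and 12.8 CPM. Mmp8 made up 77.4% and 92.9% of the UMIs of both genes in these cells, against 19.2% and 28.5% in neutrophil-like cells. Mmp8 per 1000 S100a8 and S100a9 UMIs was 153 in DPCP monocyte-like cells and 3.82 in DPCP neutrophil-like cells. Without cells rich in those transcripts the log2 ratio of Mmp8 in monocyte-like cells was 1.77, against 2.04 with them. The low S100a8 and S100a9 of this class was partly set by naming. Cluster 13 (248 DPCP cells) met the same markers but stayed unnamed, as its neutrophil genes exceeded 20% of the neutrophil-like level. It held 747 Mmp8 and 887 Mmp9 DPCP UMIs. There Mmp8 made up 45.7% of both and stood at 7.27 per 1000 S100a8 and S100a9 UMIs. Mmp8 was detected in 48.6% of DPCP monocyte-like cells (median 11512 UMIs) and in 16.1% of DPCP T cell-like cells (median 9694 UMIs), and after thinning every cell to 1000 UMIs in 12.2% and 3.52%. Mmp19 rose from 9.92 to 60.2 CPM in monocyte-like cells (6.07-fold, 3.71 to 10.7), and Mmp14 from 2 to 80 UMIs (7.10-fold, 1.90 to 59.7). The Mmp14 ratio was unsteady: its log2 value of 2.83 became 0.31 under the stricter cell filter (at least 500 genes, at most 5% mitochondrial UMIs), where it was not called, nor was it at Leiden resolution 2 or by the mean of cells' CPM. The called count was 3 of 6 genes higher and 0 lower, where 3.75% and 3.59% of all genes were called.

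Mmp8 and Mmp9 were also found in a T cell-like class and in a class like the gamma-delta T cells of the epidermis. Mmp8 went from 3 to 105 UMIs and Mmp9 from 30 to 138 UMIs in T cell-like cells, and from 7 to 245 and from 29 to 398 UMIs in gamma-delta T cell-like cells. Both genes were called higher in both classes. S100a8 and S100a9 moved with them, from 507 to 9720 CPM and from 496 to 13797 CPM, and 23.1% and 28.4% of the DPCP cells were rich in neutrophil RNA. Without those cells the log2 ratio of Mmp9 was -0.50 in T cell-like and 0.28 in gamma-delta T cell-like cells, that of Mmp8 was 2.90 and 3.70, and the calls came down to 0 and 3 genes. In all, 2 of 4 genes were called higher in T cell-like cells and 5 of 7 in gamma-delta T cell-like cells, with 0 lower in each. The background there was 4.47% higher and 3.11% lower, and 6.27% higher and 4.35% lower. Mmp13 was among the 5, at 0.926 and 24.8 CPM in gamma-delta T cell-like cells, but 52 of its 67 DPCP UMIs lay in 3 of 296 cells. Those 3 cells held 16 Cd3g UMIs and 0 UMIs of Krt14, Arg1, Gpnmb, Mmp12 or Mmp14. Mmp14 (4.17 to 22.6 CPM) had 48 of 61 UMIs in 3 cells, and Mmp19 (8.79 to 24.8 CPM) was spread over 32 cells.

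Cluster 19 carried the highest levels of Mmp12, Mmp13, Mmp14, Mmp19 and Timp1 of any class or cluster with at least 50 cells. It held 120 DPCP cells and 0 control cells, so no ratio between conditions exists for it. No marker list gave it 3 markers. It is called by its number, and its leading genes were Mmp12, Gpnmb, Cxcl5, Mmp13, Cav1, Pdpn and Arg1, though Mmp12 and Mmp13 took no part in the clustering. It held Spp1 at 1772 CPM and Csf1r at 451 CPM, with C1qa at 203 CPM. Fibroblast markers came to 1 UMI and keratinocyte markers to 8 UMIs. Endothelial markers came to 88 UMIs, from 2 of 5 markers, or 73.9 CPM, above the 35.7 CPM of all DPCP cells, and their part in the levels was not tested. Neutrophil RNA was present, with S100a8 and S100a9 at 5444 CPM and 20% of cells rich in it, and without those cells Mmp8 stood at 237 CPM, Mmp12 at 1367 CPM and Mmp9 at 16.4 CPM, against 212, 1883 and 63.8 CPM with them.

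In this cluster Mmp12 stood at 1883 CPM (1806 to 1962), against 9.97 CPM in all other DPCP cells. Mmp14 stood at 880 CPM against 53.8, Mmp19 at 652 CPM against 40, Adam8 at 514 CPM against 208, and Mmp13 at 322 CPM against 3.95. Timp1 stood at 49.5 CPM against 4.06, whereas Timp2 was lower than elsewhere, 61.3 CPM against 109. These values describe a cluster and carry no test. Without cluster 19, the log2 ratio over all kept cells was -0.19 for Mmp12, 1.47 for Mmp13 and 0.82 for Mmp19, so the rise of Mmp12 and the call of Mmp19 rest on these 120 cells, while Mmp14 was at 2.96.

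The proteases were unequally spread within the cluster. Mmp14 was detected in 100 of 120 cells and Adam8 in 97, with at most 48 and 65 UMIs in 1 cell. Mmp12 was detected in 59 cells, of which 1 held 651 of the 2242 UMIs and 30 with at least 10 UMIs held 2131. Mmp13 was in 21 cells, and 3 of them held 320 of 383 UMIs. Mmp19 was in 79 cells, of which 1 held 206 of the 776 UMIs and 3 held 316. The Mmp19 level without these cells was not computed. The 30 cells rich in Mmp12 had Mmp19 at 1526 CPM against 218 CPM in the other 90 cells, and Mmp14 at 778 against 930 CPM. Mmp13 stood at 342 and 311 CPM, but 1 of the 90 cells held 227 of their 248 UMIs, and without it the 311 CPM became 26.9 (16.7 to 41.1). At least 4 of the 7 proteases were detected together in 59.2% of the cluster's cells, 26.0% of DPCP Langerhans cell-like cells, 3.90% of DPCP neutrophil-like cells and 1.71% of DPCP macrophage-like cells, whose median depths were 7366, 13588, 3698 and 10520 UMIs. After thinning to 1000 UMIs, Mmp14 was found in 46.2% and Mmp12 in 31.9% of the cluster's cells, and in 0.704% and 0% of DPCP T cell-like cells, where unthinned shares were 3.50% and 2.10%.

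Some other proteolytic genes, from lists chosen beside the members, were high in the cluster as well, and some were low. Cathepsin L (Ctsl) was at 1444 CPM against 122 in other DPCP cells, cathepsin K (Ctsk) at 78.9 against 3.08, and cathepsin B (Ctsb) at 1637 against 731. Lower there were Adam19 (39.5 against 134 CPM), Adam23 (1.68 against 42.2), Adamts10 (8.40 against 18.7) and Prtn3 (2.52 against 14.2). Furin, which activates pro-MMP14, was at 304 against 140 CPM, and the plasminogen activator Plat at 16.0 against 1.85 CPM, from 19 UMIs. Of the other matrix metalloproteinases, Mmp25 stood at 42.0 CPM against 53.2, and Mmp3, Mmp10 and Mmp7 were at 0 UMIs.

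Mmp12, Mmp13 and Mmp8 lie in 1 run of metalloproteinase genes on chromosome 9 (mm10, plus strand): Mmp13 at chr9:7272514-7283331, Mmp12 at chr9:7344381-7369499 and Mmp8 at chr9:7558456-7568485. Their neighbours Mmp3 and Mmp10 held 6 and 0 control and 3 and 1 DPCP UMIs, and Mmp27, next to Mmp8, went from 13 to 143 UMIs. Mmp12 overlaps Mmp1b on the other strand, which held 0 UMIs. Over cluster-by-condition sums, Mmp12 and Mmp13 followed each other with r = 0.64 (34 sums, a description of points that share 1 library). Because of that pairing, the bases before their starts are shown, beside those of Mmp14, which lies on chromosome 14 and was high in the same cells but holds no such motif. The motif is that of AP-1 (TGANTCA, both strands, which read the same), printed in capitals. The sequences are RefSeq's, GRCm38.p6, plus strand, 5′ to 3′, the 250 bases that end just before the start.
Mmp13: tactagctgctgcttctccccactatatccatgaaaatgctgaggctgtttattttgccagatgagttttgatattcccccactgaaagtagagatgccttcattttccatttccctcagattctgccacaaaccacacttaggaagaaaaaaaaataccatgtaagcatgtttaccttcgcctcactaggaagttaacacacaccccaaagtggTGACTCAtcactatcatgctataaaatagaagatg
Mmp12, first start: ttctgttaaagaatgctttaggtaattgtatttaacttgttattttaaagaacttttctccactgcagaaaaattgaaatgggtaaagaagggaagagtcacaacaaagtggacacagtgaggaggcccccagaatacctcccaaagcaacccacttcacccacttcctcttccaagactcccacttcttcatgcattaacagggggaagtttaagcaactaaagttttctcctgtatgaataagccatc
Mmp12, second start: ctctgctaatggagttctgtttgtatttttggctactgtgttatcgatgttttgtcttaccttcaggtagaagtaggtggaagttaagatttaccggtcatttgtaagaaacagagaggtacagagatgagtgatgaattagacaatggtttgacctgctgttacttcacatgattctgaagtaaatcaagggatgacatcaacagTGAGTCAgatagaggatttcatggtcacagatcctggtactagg
Mmp14: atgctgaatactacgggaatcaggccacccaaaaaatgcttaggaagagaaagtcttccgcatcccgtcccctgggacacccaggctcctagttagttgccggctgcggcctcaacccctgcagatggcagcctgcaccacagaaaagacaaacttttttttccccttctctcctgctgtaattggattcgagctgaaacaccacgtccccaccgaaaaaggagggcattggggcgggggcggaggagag
They lie at chr9:7272264-7272513, chr9:7344147-7344396, chr9:7347124-7347373 and chr14:54431348-54431597. Mmp13 holds TGACTCA, which begins 35 bases before the start, and the second Mmp12 entry holds TGAGTCA, 44 bases before its start. The first Mmp12 entry and Mmp14 hold no match in this window. Of the 7 members in the table, these 2 held the motif, as did 7.82% of 27025 genes. A match describes letters and is not a site of binding. Of 7 AP-1 genes tested over all kept cells 4 were called higher and 0 lower, where 14.3% and 10% of all genes were called, with Junb at 2.83-fold, Fosl2 at 3.27-fold and Fos at 2.08-fold. In cluster 19 most AP-1 genes stood lower than in other DPCP cells. Junb was at 733 CPM against 1027, Jund at 260 against 383 and Fosl2 at 154 against 242. Fos was at 444 against 500 CPM and Fosb at 45.3 against 56.3. Jun was at 265 against 250 CPM, and Fosl1 at 16.0 against 5.28 CPM, from 19 UMIs.

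In control skin, cluster 22 was a small set of cells high in Mmp12, Mmp13 and Mmp14. This cluster, macrophage-like, held 38 control and 4 DPCP cells with Tmem119, Olfml3 and Col14a1 among its genes. Its control cells had Mmp14 at 175 CPM, Mmp12 at 171 CPM and Mmp13 at 91.2 CPM, in 29, 20 and 15 of the 38 cells. They held 52.7% of all control Mmp13 UMIs, 21.0% of Mmp14 and 12.4% of Mmp12. Control Langerhans cell-like cells held more of the Mmp14 (29.4%), and the larger clusters 3 and 1 more of the Mmp12 (35.7% and 24.6%). Over the whole macrophage-like class (206 control, 175 DPCP cells), Mmp12 and Mmp13 were called lower, from 35.4 to 4.81 CPM (0.136, 0.0627 to 0.263) and from 21.9 to 5.29 CPM (0.241, 0.113 to 0.470). Mmp19 was called higher, from 17.9 to 58.2 CPM (3.25-fold, 2.25 to 4.77). That is 1 of 7 genes higher and 2 lower, where 3.39% and 3.76% of all genes were called.

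Without cluster 22, which has too few DPCP cells to compare, the class was cluster 11 alone, marked by Folr2, Pf4 and Gas6. There Mmp12 stood at 3.32 and 2.45 CPM and Mmp13 at 5.54 and 5.39 CPM, with no call, so both falls rest on cluster 22. Mmp14 was called higher in cluster 11, from 5.54 to 29.9 CPM (5.40-fold, 2.74 to 11.8), and Mmp19 again (3.06-fold). Mmp9 stood at 72.6 and 48.5 CPM. Timp2 stood at 394 and 343 CPM, the highest of any class in control skin, and Timp1 went from 0 to 25 UMIs, at least 7.37-fold higher. The stricter cell filter put 111 of the 120 cells of cluster 19 in the macrophage-like class. Log2 ratios there were 4.78 for Mmp12 and 1.70 for Mmp13. Leiden resolution 0.5 put 1 cell of cluster 19 in the class, with Mmp13 at 3.81 and Mmp12 still called lower. The part of cluster 19 in these changes was not tested.

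Langerhans cell-like cells, the epidermal antigen-presenting cells marked by Cd207, Epcam and Mfge8, numbered 56 in control and 123 in DPCP skin. Their metalloproteinases changed over: Mmp9 fell and 5 others rose. Mmp9 went from 362 to 122 CPM, at a ratio of 0.335 (0.278 to 0.405), and was detected in 48 of 56 and 62 of 123 cells. Mmp14 went from 161 to 801 CPM, 4.97-fold higher (4.08 to 6.12), and was detected in 38 of 56 and 113 of 123 cells. Neither gene depended on a few cells: the 3 highest DPCP cells held 23.9% of Mmp9 and 8.88% of Mmp14 UMIs. After thinning to 1000 UMIs, Mmp14 was found in 32.1% and 53.7% and Mmp9 in 30.4% and 10.6% of cells. Adam8 went from 23.0 to 252 CPM, 11-fold higher (6.57 to 19.7), in 11 of 56 and 92 of 123 cells.

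Mmp19 and Mmp12 each went from 1 control UMI, to 102 and 286 UMIs. The ratios were 36.4 (6.38 to 1450) and 102 (18.2 to 4042). Mmp13 went from 0 to 60 UMIs, at least 7.13-fold higher. The last 2 were concentrated: 8 of 123 cells held 230 of the 286 Mmp12 UMIs, and 3 cells held 46 of the 60 Mmp13 UMIs. Timp1 went from 0 to 34 UMIs, too few for a call, and Timp2 stood at 27.6 and 28.5 CPM. In sum 5 of 7 genes were called higher and 1 lower, where 12.2% and 8.78% of all genes were called. The median log2 ratio was 2.83 over those 7 genes and 0.10 over all genes tested.

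The DPCP cells of this class also carried complement genes of macrophages. C1qa went from 181 to 1204 CPM, while Epcam went from 660 to 220 CPM and Cd207 from 620 to 511 CPM. A gate on each cell's own markers placed 95 of the 123 DPCP cells and 15 of the 56 control cells with macrophages. The class was therefore split, after its values were seen, at 5 UMIs of C1qa, C1qb and C1qc. In cells with at most 5 (45 control, 41 DPCP), Mmp14 went from 147 to 380 CPM, Mmp9 from 387 to 205 CPM and Adam8 from 16.6 to 158 CPM, with intervals that did not overlap. Mmp13 was at 0 UMIs in these cells in both conditions, and Mmp12 went from 1 to 125 UMIs in 1 and 8 cells. In cells with over 5 (11 control, 82 DPCP), Mmp14 went from 202 to 1007 CPM and Mmp9 from 291 to 80.7 CPM. Among cells with at least 1 Cd207 UMI (54 and 100), Mmp14 stood at 164 and 831 CPM and Mmp9 at 371 and 131 CPM. Mmp14, Mmp9 and Adam8 thus moved the same way in these subsets, and without cells rich in neutrophil RNA the log2 ratios of Mmp14 and Mmp9 were 2.45 and -1.70. In addition, all DPCP Mmp13 UMIs were in the C1q-high cells.

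**Figure D5:**
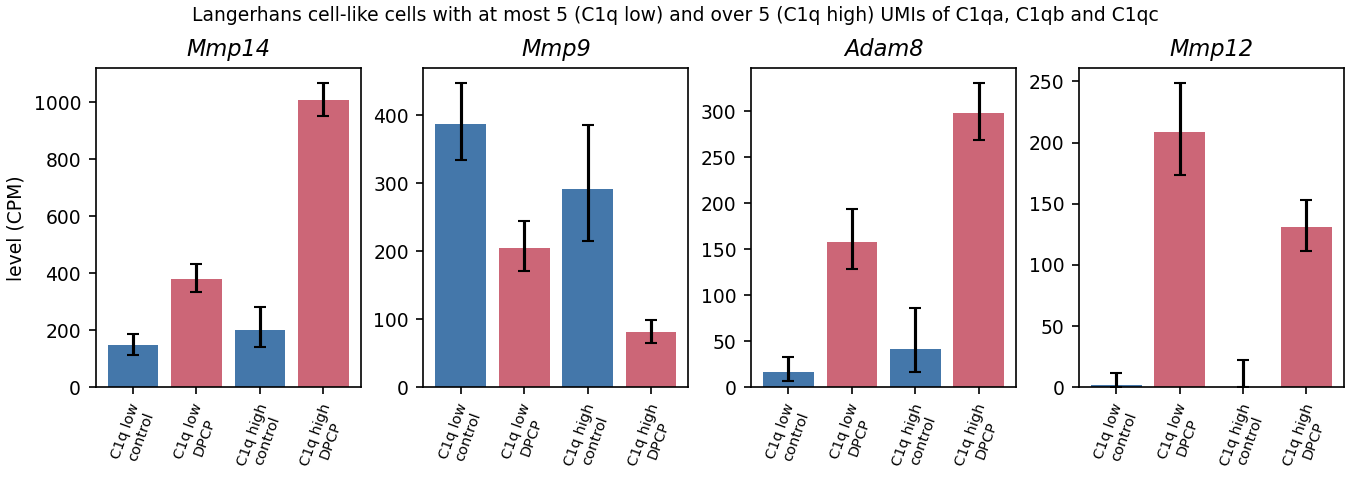
Level (CPM, y axis from 0) of Mmp14, Mmp9, Adam8 and Mmp12 in Langerhans cell-like cells with at most 5 and over 5 UMIs of the C1q genes, control blue and DPCP red, with 95% counting intervals. Mmp14 goes from 147 to 380 CPM in C1q-low and from 202 to 1007 CPM in C1q-high cells, and Mmp9 goes down in both.

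Mature dendritic cell-like cells, marked by Ccr7, Fscn1 and Ccl22, numbered 57 and 122. Mmp14 rose from 70 to 492 UMIs and reached 240 CPM (2.38-fold, 1.85 to 3.10), in 18 of 57 and 80 of 122 cells. Adam8 went from 459 to 246 CPM (0.537, 0.465 to 0.619), just short of the rule and opposite to the Langerhans cell-like cells. Mmp9 was called higher, from 13 to 43.9 CPM (3.38-fold), but 19.7% of the DPCP cells were rich in neutrophil RNA, and without such cells its log2 ratio was -0.53. The count was 2 of 3 genes higher and 0 lower, where 10.8% and 3.51% of all genes were called. In order of Mmp14 among groups of at least 50 cells, cluster 19 and DPCP Langerhans cell-like cells (880 and 801 CPM) had overlapping intervals, and DPCP mature dendritic cell-like cells (240 CPM), control Langerhans cell-like cells (161 CPM) and control mature dendritic cell-like cells followed, each below the one before.

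Type 2 conventional dendritic cell-like cells, marked by Cd209a, Mgl2 and Flt3, numbered 513 and 137. Here Mmp12 fell from 21.2 to 3.04 CPM (0.143, 0.0456 to 0.345), Adam8 from 121 to 51.7 CPM (0.426, 0.335 to 0.535) and Timp2 from 92.3 to 40.1 CPM (0.435, 0.331 to 0.564). Mmp9 rose from 8.73 to 30.4 CPM (3.48-fold, 2.28 to 5.35) and Mmp19 from 6.55 to 14.6 CPM (2.23-fold, 1.26 to 3.89). Timp1 went from 0 UMIs, which allows up to 0.595 CPM, to 54 UMIs in 19 of 137 cells, at least 55.2-fold higher. Of these UMIs, 23 lay in 3 cells. With the 5% highest Scrublet (doublet) scores removed, Adam8 and Timp2 were no longer called (log2 ratios -0.49 and -0.57, from -1.23 and -1.20), while Mmp12 was (-2.40). Adam8 also lost its call under the stricter cell filter (-0.50) and at Leiden resolution 0.5 (-0.59), and Timp2 at resolution 2 (-0.82), with at least 80% own tag UMIs (-0.93) and by the mean of cells' CPM (-0.94). Timp1, near the minimum of 50 UMIs, was not called under the stricter filter, without doublet removal or after the Scrublet removal. Nor was it at resolution 0.5 or 2, with the listed genes, at 80% own tag or at 200 UMIs. Its log2 ratio ran from 5.30 to 6.74. Mmp19 lost its call under the stricter filter, without doublet removal, with the listed genes and by the mean of cells' CPM (0.71). Mmp9 lost its call after the Scrublet removal (0.55) and at resolution 2. Neither was called at 200 UMIs. So 3 of 6 genes were called higher and 3 lower, where 3.54% and 4.43% of all genes were called. S100a8 and S100a9 went from 564 to 1510 CPM in these cells, and without cells rich in them Mmp9 was no longer called (log2 ratio 0.66).

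In the unnamed clusters 1 and 3, Adam8 and Timp2 were not called. Adam8 stood at 135 and 127 CPM in cluster 1 (1192 control, 169 DPCP cells) and at 152 and 140 CPM in cluster 3 (1149 and 70 cells), with intervals of the ratio that held 1. Timp2 stood at 226 and 269 CPM and at 159 and 198 CPM. Mmp19, in contrast, more than doubled its level in each, from 42.0 to 97.0 CPM (2.31-fold, 1.96 to 2.72) and from 24.4 to 74.4 CPM (3.04-fold, 2.27 to 4.02). Mmp12 stood at 10.1 and 29.7 CPM in cluster 1, but 3 of its 169 DPCP cells held 48 of the 61 UMIs, and the other 166 cells were at 6.43 CPM (3.42 to 11). In cluster 3 it stood at 16.2 and 1.24 CPM, 210 control UMIs against 1, and 3 control cells held 95 of the 210. Outside the neutrophil-like class as a whole, Adam8 stood at 115 CPM in both conditions, while over all kept cells it stood 1.86-fold higher, and Timp2 stood at 159 and 88.7 CPM.

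Over all kept cells the inhibitors thus did not move as a pair. Among the classes compared, Timp2 was called lower only in type 2 dendritic cell-like cells. It was not called in neutrophil-like (1.78-fold), monocyte-like (1.10-fold), Langerhans cell-like (1.03-fold) or macrophage-like cells (0.955). In mature dendritic cell-like cells it went from 2 to 41 UMIs, too few for a call. In T cell-like and gamma-delta T cell-like cells it went from 135 to 109 and from 140 to 115 UMIs, with no call. Timp1 was at 0 UMIs in control neutrophil-like, monocyte-like, macrophage-like, Langerhans cell-like, type 2 and mature dendritic cell-like and both classes of T cells, and its 22 control UMIs lay in clusters 6, 1 and 3 apart from 1. After DPCP it was highest in cluster 19 (49.5 CPM, 37.7 to 63.9) and type 2 dendritic cell-like cells (32.8 CPM, 24.7 to 42.9), whose intervals overlapped, and stood at 0.326 CPM in neutrophil-like cells. Timp2 was highest in macrophage-like cells in both conditions (353 and 338 CPM) and was at 28.5 CPM in DPCP Langerhans cell-like cells, where Mmp14 was at 801 CPM. Over the 34 cluster-by-condition sums, Mmp14 had r = 0.58 with Timp1 and r = -0.39 with Timp2, given as a description.

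The genes whose levels followed each member most closely over the 34 sums, among 10092 genes, were also taken as a description. Mmp8 went with Lcn2 (r = 0.92), Wfdc21 and Csf3r, and Mmp9 with S100a8 (r = 0.92), S100a9 and Il1rap. Lcn2 encodes lipocalin-2, a granule protein that binds MMP9. Mmp14 went with Kif1c (r = 0.88), Wsb2 and Myo10, and Mmp19 with Pgam1 (r = 0.79), Hmox1 and F10. Mmp12 had Ppbp (r = 0.69), Ptges and Dcstamp, and Mmp13 had Tollip (r = 0.74), Ptges and Lgals3. Adam8 had Piwil2 (r = 0.82), Riok3 and Cd80, Timp1 had Pgf (r = 0.75), Ppbp and Rnh1, and Timp2 had Ctsd (r = 0.86), Rnf141 and Gbp7.

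Among related genes over all kept cells, where 14.3% of all genes were called higher and 10% lower, 2 of the 5 other matrix metalloproteinases tested were higher and 2 lower, including Mmp25, a membrane-bound enzyme of neutrophils (8.79 to 52.9 CPM), Mmp27 (0.251 to 2.69 CPM) and Mmp28 (2.01 to 0.602 CPM). Of 10 other ADAM proteases tested 2 were higher and 4 lower, with Adam19 at 3.05-fold, Adam15 at 0.424 and Adam22 at 0.298. Of 6 ADAMTS proteases, Adamts2, Adamts3 and Adamts5 were lower and 0 were higher. Reck, a membrane-anchored inhibitor, was the only other inhibitor tested and stood 2.13-fold higher, from 77 to 168 UMIs. Of 11 activation, docking and clearance partners 6 were higher and 0 lower, including Lcn2 (36.0-fold), Cd44, an anchor of MMP9 on cells (3.43-fold), and the urokinase receptor Plaur (3.17-fold). Of 5 other matrix-degrading proteases 3 were higher and 0 lower, Ctsl (4.18-fold), Ctsk (4.2-fold) and Prtn3 (28.8-fold). Within neutrophil-like cells, 5.94% of all genes were called higher and 7.76% lower. There 1 of 7 other ADAM proteases tested was higher, the sheddase Adam17 (2.10-fold, from 22 control UMIs). Of 10 partners 5 were higher, including Plaur (2.37-fold) and Lcn2 (2.19-fold). Of 4 other matrix-degrading proteases 1 was higher, Ctsb (4.87-fold, from 37 control UMIs). Of 2 ADAMTS proteases 1 was lower, Adamts10 at 0.311, from 9 control UMIs. Within macrophage-like cells Ctsl was 3.90-fold higher and Lcn2 2.40-fold. They were the only genes called among 3 other matrix-degrading proteases and 9 partners tested. There 3.39% of all genes were called higher and 3.76% lower.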

How the data were processed

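The deposited matrix holds UMI counts per gene and cell, made by the authors with Cell Ranger 6.1.1 and Seurat 4.0.1 on mm10, per the submitters' processing notes. Cells were assigned to a condition by barcode suffix and the row order of the deposited aggregation table. The filter asked for 200 genes or more and no more than 10% mitochondrial UMIs per cell. Scrublet called 3 control and 0 DPCP cells, so it is taken not to have worked, and doublets remain. Cells were clustered in scanpy 1.11.5 (2000 variable genes without the listed ones, 30 components, 15 neighbours, Leiden resolution 1), and clusters were named from 3 or more markers in at least 10% of cells and 2-fold above the rest. UMIs were summed per class and condition, with exact Poisson and conditional binomial intervals, and compared where each condition had at least 50 cells. A count of 0 was set to 3 counts for a bound. On simulated Poisson counts, 189 of 200 changed genes were called in all kept cells and 185 of 200 in Langerhans cell-like cells. In these, 10 and 38 unchanged genes were called. The simulation held counting error only, as the intervals do. It does not cover UMIs concentrated in a few cells or differences between mice. Neutrophil RNA counts as rich at over 20 UMIs of S100a8 and S100a9 outside the neutrophil-like class, a limit taken from control cells. All 9 members are named, with up to 3 called genes of most UMIs from each of 7 lists. Members and lists were chosen with earlier results of these data known. TMM factors came from edgeR 4.0.16. Mmp9 and Mmp19 had no entry in the promoter table, and Mmp19, Adam8, Timp1 and Timp2 overlap other annotated genes. The sources used here do not give whether counting used strand.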

Additional observations from a re-analysis of the deposited data

Results flagged for a closer look

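The direction of 4 genes differed between cell classes, and the difference between classes was not tested. Mmp9 stood at a log2 ratio of -1.58 in Langerhans cell-like cells but at 1.80 in type 2 conventional dendritic cell-like, 1.76 in mature dendritic cell-like, 2.02 in T cell-like and 3.46 in epidermal gamma-delta T cell-like cells. S100a8 and S100a9 stood higher after DPCP in all 5 classes, the Langerhans cell-like class included (1363 to 3376 CPM). Without cells rich in neutrophil RNA, Mmp9 was at -1.70 in Langerhans cell-like cells. It was then at -0.53 in mature dendritic cell-like, -0.50 in T cell-like and 0.28 in gamma-delta T cell-like cells. In type 2 conventional dendritic cell-like cells it was no longer called. Mmp12 stood at -2.88 in macrophage-like and -2.80 in type 2 conventional dendritic cell-like cells, and at 6.67 in Langerhans cell-like cells, where 8 cells held 230 of 286 UMIs. Mmp13 stood at -2.05 in macrophage-like cells and at 2.83 (a lower bound, from 0 control UMIs) in Langerhans cell-like cells. It stood at 4.74 in epidermal gamma-delta T cell-like cells, where 3 of 296 DPCP cells held 52 of 67 UMIs. Without cluster 22 (38 control and 4 DPCP cells), neither Mmp12 nor Mmp13 was called in macrophage-like cells. Adam8 stood at 3.45 in Langerhans cell-like and at -1.23 in type 2 conventional dendritic cell-like cells.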

How the results depend on the processing

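Alternatives were listed at the outset, except those that leave out cluster 19 or 22, use cluster 2 alone or split the Langerhans cell-like class, which were added after the data were seen. Of 459 ratios recomputed, 393 stayed within their main interval, 55 moved out of it and 11 reversed. Of 266 counts of members called, 221 stayed within 1.5 times. The reversed log2 ratios in macrophage-like cells were 4.78 (Mmp12) and 1.70 (Mmp13) under the stricter cell filter (at least 500 genes, at most 5% mitochondrial UMIs), 3.81 (Mmp13) at Leiden resolution 0.5, and 4.34 and 2.96 with cells gated on their own markers. These settings placed 111, 1 and 58 cells of cluster 19 in the class. Gating also placed 95 of the 123 DPCP Langerhans cell-like cells there. The part of either group of cells in the reversals was not tested. Mmp9 in mature dendritic cell-like cells reversed to -0.039 with gating and to -0.53 without cells rich in neutrophil RNA, and in T cell-like cells to -0.50 without them. Over all kept cells, Mmp12 was at -0.19 without cluster 19. In neutrophil-like cells, Mmp14 and Mmp19 were at -0.58 and -0.25 in cluster 2 alone, where 0 members were called higher.

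Members called higher and lower changed as follows. In neutrophil-like cells, 1 (Mmp14) was higher under the stricter filter and by mean of cells' CPM, 4 with gating (Mmp8, Mmp9, Mmp14 and Adam8) and 4 with TMM (Mmp14, Mmp19, Adam8 and Timp2). There 1 was lower: Mmp9 under the stricter filter, at 80% own tag and by the mean of cells' CPM, and Mmp12 with no filter, removal of the 5% highest Scrublet scores, Leiden 0.5 and clustering with the listed genes. In monocyte-like cells, 5 were higher after the Scrublet removal and 2 lower with gating. In macrophage-like cells, 7 were higher and 0 lower under the stricter filter and with gating, 3 and 1 at Leiden 0.5, 2 and 0 without cluster 22, and 0 and 0 at a minimum of 200 UMIs. At 10 UMIs 3 were higher, and by the mean of cells' CPM 1 was lower. In Langerhans cell-like cells, 3 were higher at 200 UMIs. In type 2 dendritic cell-like cells, 1 was higher under the stricter filter, without doublet removal, after the Scrublet removal (1 lower too), at Leiden 2 and with the listed genes, and 0 at 200 UMIs. In mature dendritic cell-like cells, 8 were higher at Leiden 0.5, which put 118 cells of cluster 19 there, 6 at 10 UMIs, and 1 with gating, without neutrophil RNA or at 200 UMIs, while 1 was lower by the mean of cells' CPM. In T cell-like cells, 0 were higher with gating, without neutrophil RNA or at 200 UMIs, and in gamma-delta T cell-like cells 3 and 2 in the last 2 settings. By the mean of cells' CPM, 3275 genes were lower over all kept cells (22.8%, with 13.6% higher), and the median of all genes moved by -0.23. The cause was not tested unless stated. Langerhans cell-like calls of Mmp9, Mmp14 and Adam8 held in each setting that gave a value. None came for that class after the Scrublet removal or with gating, for T cell-like cells after the Scrublet removal or at 80% own tag, or for type 2 dendritic and gamma-delta T cell-like cells with gating. Cells with at most 5 C1q UMIs were under 50 per condition. Depth limits genes at 0 to 3 control UMIs. No paired analysis was possible because each condition is 1 tagged sample.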
